A study of Bos taurus with 179 samples.

Results

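The anaphase promoting complex, also called the cyclosome, is a large ubiquitin ligase built from many proteins, and the transcripts of its subunits were followed across bovine oocyte growth. Of 10 subunit genes searched for, 9 were paired with a gene ID by the study's list of genes expressed in all size groups, and they are 9 of the 21218 gene IDs in the count table. They are ANAPC1 (ENSBTAG00000027991), ANAPC4 (ENSBTAG00000000646), ANAPC5 (ENSBTAG00000003092), ANAPC2 (ENSBTAG00000046223), ANAPC11 (ENSBTAG00000001937), CDC27 (ENSBTAG00000002726), CDC23 (ENSBTAG00000008759), ANAPC7 (ENSBTAG00000016675) and ANAPC13 (ENSBTAG00000014461). ANAPC10, the subunit that helps to hold the substrate, was not paired and was not analysed here. Because the list held genes with counts in most oocytes of every size group, detection of these subunits was in part set by the choice.

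The complex attaches ubiquitin to securin, cyclin B and other proteins that hold a cell before anaphase, and the proteasome then degrades them. A co-activator, CDC20 or FZR1, brings the substrate to the complex, and the spindle checkpoint holds the complex back until chromosomes are attached. In oocytes the complex with FZR1 is known to take part in the long prophase arrest, and the complex with CDC20 is needed to leave metaphase. Growing oocytes store transcripts for meiosis and early cleavage, so the level of an mRNA need not follow its protein.

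Single oocytes of Bos taurus from abattoir ovaries were denuded of their surrounding cells and measured, and their polyadenylated mRNA was captured with oligo-dT, amplified and sequenced. The size groups were A (<60 μm, 21 oocytes), B (60–69 μm, 25), C (70–79 μm, 23), D (80–89 μm, 24), E (90–99 μm, 21), F (100–109 μm, 18), G (110–119 μm, 19) and H (>120 μm, 14), with no treatment compared. Per the paper, fully grown oocytes were first aspirated from visible follicles. Growing oocytes were then freed by slicing, in a medium that held cilostamide. The route of each oocyte is not given, and its part in differences between sizes was not tested. Libraries were made in 2 replicates, replicate 1 with reads of 150 bp (97 oocytes) and replicate 2 with reads of 75 bp (68 oocytes), and replicate 1 held 3 of the 21 oocytes of group A. The animals were not named, so p-values measure the spread between the summed libraries, which share animals in a way that is not known. Read length and library batch cannot be told apart, and with oligo-dT capture fewer transcripts and shorter poly(A) tails cannot be told apart either.

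Levels are given in CPM (counts scaled to the effective size of the library), which do not correct for gene length, so levels are compared between oocytes and not between subunits. For tests, counts were added up over the oocytes that shared a size group and a replicate, so that 16 sums were fitted with the replicate as a term. The p-values came from the quasi-likelihood test of edgeR and were adjusted over all 14087 genes by the method of Benjamini and Hochberg. A DEG is a gene with an adjusted p below 0.05. The oocyte totals ranged from 277126 to 8038061 counts with a median of 1763520, and 1 oocyte of 100–109 μm with 7856854 counts supplied 52.9% of its replicate 1 sum. The oocyte markers BMP15, BTG4 and CPEB1 had counts in all 165 oocytes, with a summed CPM between 3580 and 16100. Of the markers of other ovarian cells, COL1A2 had counts in 143 oocytes, CD68 in 64, FSHR in 45, AMHR2 in 10 and CYP11A1 in 9, and COL1A1, COL3A1, CDH5, CD34 and CD14 in 4 or fewer. The summed CPM of no such list passed 36.2 in any oocyte. COL1A2, a collagen of stromal cells, rose between <60 and >120 μm by 3.2 log2 units (SE 0.73, adjusted p 0.0055 by edgeR's quasi-likelihood test) and with diameter by 0.27 per 10 μm (adjusted p 0.0205). The summed stromal markers had a median of 0.679 CPM (0 to 6.63) at <60 μm and 7.22 CPM (1.73 to 22.6) at >120 μm. This sum is nearly COL1A2 alone, since COL1A1 had counts in 2 oocytes and COL3A1 in 4. The part of these markers in the results below was not tested.

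At raw depth, 8 of the 9 subunits had at least 1 count in each of the 165 oocytes. ANAPC1, the largest scaffold protein of the complex, was the exception with counts in 162 oocytes (98.2%, 95% Wilson interval 94.8 to 99.4, counting error only), and 162 oocytes held all 9 subunits. After each oocyte was thinned to 250000 counts, ANAPC1 was detected in 154 oocytes (93.3%) and ANAPC5 in 164, while the other 7 were still found in all 165. ANAPC1 had a median of 25 counts per oocyte, against medians between 95 and 680 for the rest, so its values carry the most counting error. At the thinned depth, ANAPC1 had no count in 4 of 19 oocytes of 110–119 μm (21.1%, 95% interval 6.05 to 45.6) and in 0 of 18 oocytes of 100–109 μm, whose interval of 0 to 18.5% overlaps it.

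The scaffold subunits ANAPC1, ANAPC4 and ANAPC5 form the platform that joins the catalytic core to the arc of repeat proteins, and none of the 3 was a DEG in any comparison by the test on the sums. ANAPC1 had group medians between 12.4 CPM in 60–69 μm and 20.4 CPM in <60 μm oocytes. Its sums were 26.4, 13.2, 17.6, 12.4, 17.6, 14.5, 12.6 and 18.6 CPM in replicate 1 and 16.5, 15, 17.4, 17.1, 18.2, 14.8, 29.4 and 17.0 CPM in replicate 2, from the smallest to the largest size group. The highest sum was therefore <60 μm in replicate 1 and 110–119 μm in replicate 2, and the replicates shared no order. ANAPC4 had its lowest group level in 100–109 μm oocytes, where replicate 1 was at 32.9 CPM and replicate 2 at 125 CPM. The replicate 1 sum was the lowest of all 16 for ANAPC4, but without the deepest oocyte, at 12.6 CPM, it was 54.7 CPM, and the lowest group level was then at >120 μm. The replicate 2 sum was within the range of the other replicate 2 sums (92.1 to 145 CPM). ANAPC5 had its highest level in 70–79 μm oocytes (111 and 42.8 CPM in replicates 1 and 2) and its lowest in >120 μm oocytes (68.5 and 28.0 CPM), as means over the replicates. The replicates differed in this order, since the highest sum of replicate 2 was at 60–69 μm and the lowest of replicate 1 at 80–89 μm. Its slope was -0.06 log2 units per 10 μm of diameter (SE 0.03), with an adjusted p of 0.103 by edgeR's quasi-likelihood test.

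**Figure D1:**
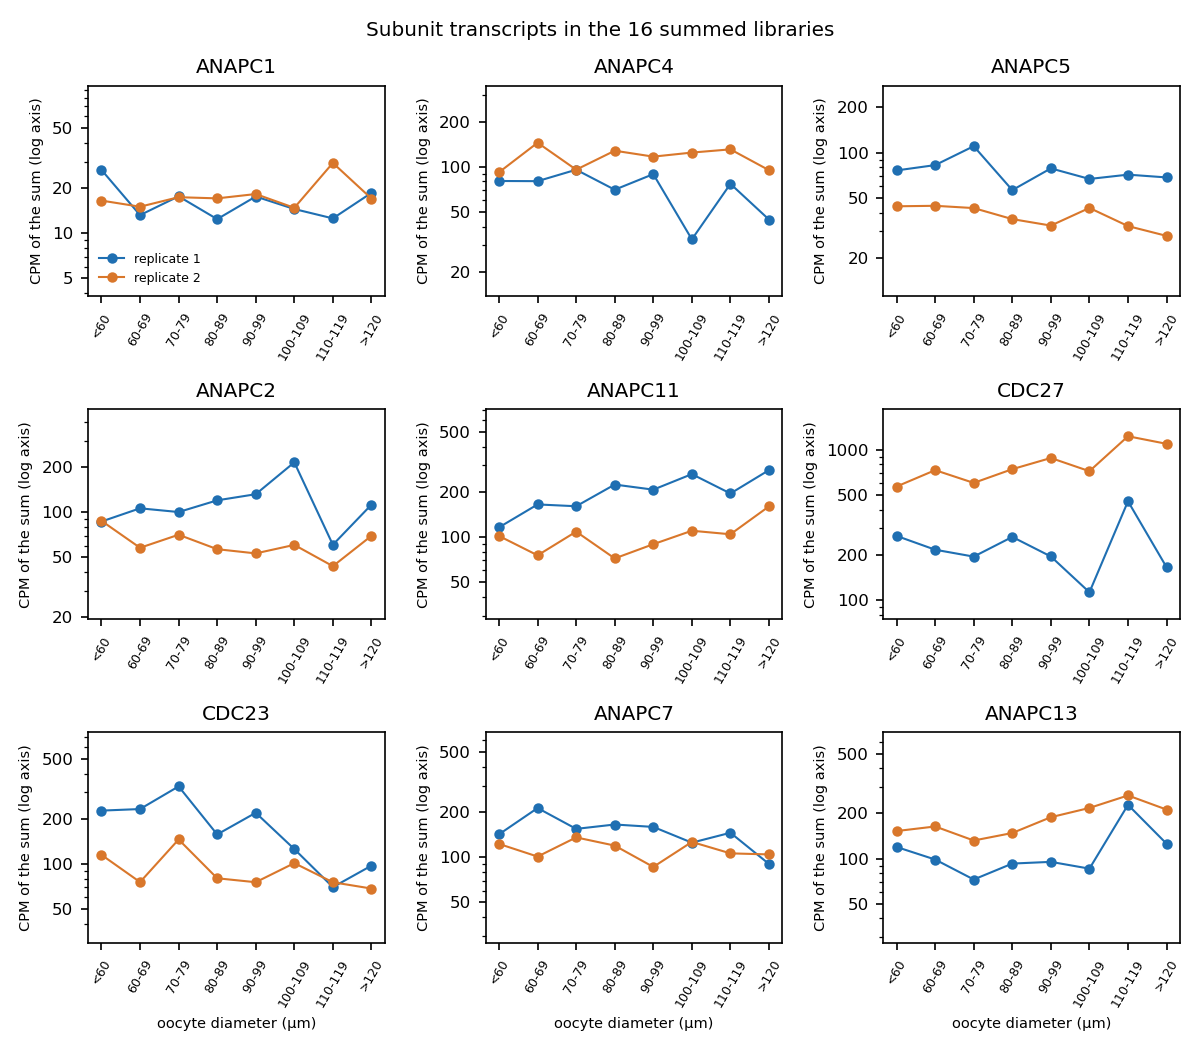
CPM of each subunit (vertical axes, log scale, each panel spanning the same fold range) in the summed libraries of the 8 size groups (horizontal axes, diameter in μm), with replicate 1 in blue and replicate 2 in orange; each point is 1 sum. CDC27 lies higher in replicate 2 in every size group, with 454.8 and 1232 CPM at 110–119 μm against 112.8 and 721.2 CPM at 100–109 μm, and CDC23 falls to 70.2 and 75.7 CPM at 110–119 μm.

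The catalytic core is made of ANAPC2, the cullin that holds the core together, and ANAPC11, the RING finger protein that recruits the charged E2 enzyme. ANAPC11 rose with diameter by 0.11 log2 units per 10 μm (SE 0.03), with an adjusted p of 0.00711 by edgeR's quasi-likelihood test. Its sums were 116.1, 164.9, 160.4, 223.6, 206.8, 262.4, 195.0 and 279.1 CPM in replicate 1 and 101.7, 75.6, 108.7, 72.1, 89.7, 110.2, 104.4 and 160.1 CPM in replicate 2, from <60 to >120 μm. The >120 μm sum was the highest in both replicates, and the rest of the order differed between them. In replicate 1 the 3 oocytes of <60 μm had a median of 109 CPM (lowest 78.6), and those of >120 μm ranged from 142 to 493 CPM (median 261.9). In replicate 2 single oocytes ranged from 32.8 to 252 CPM (median 80.5) and from 42.5 to 264.1 CPM (median 180.0), so the groups overlapped in both replicates. The >120 μm oocytes were higher than the <60 μm oocytes by 0.91 log2 units (SE 0.31, adjusted p 0.046 by edgeR's quasi-likelihood test), with differences of 1.26 in replicate 1 and 0.65 in replicate 2. That call was lost without any 1 of 5 sums, at adjusted p-values between 0.0525 and 0.398 by the same test. They were both >120 μm sums, replicate 1 of <60 μm, which pools 3 oocytes and without which the difference was 0.55, replicate 1 of 60–69 μm and replicate 2 of 70–79 μm. The slope over diameter stayed below the threshold without any of the 16 sums. The stromal marker COL1A2 was higher in the same comparison and along diameter, as given above, while COL1A1 and COL3A1 had counts in 4 or fewer oocytes.

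ANAPC2 had a slope over diameter of -0.01 log2 units per 10 μm (SE 0.04) and was not called. Its sums were 86.7, 106.2, 100.3, 120.0, 131.8, 214.8, 60.8 and 112.3 CPM in replicate 1 and 87.6, 58.0, 70.8, 56.8, 53.2, 60.6, 43.8 and 69.7 CPM in replicate 2. The 110–119 μm sum was the lowest in both replicates, and the 100–109 μm sum was the highest in replicate 1 alone, at 134.7 CPM without its deepest oocyte. Between these groups ANAPC2 differed by -1.22 log2 units (SE 0.35), with an adjusted p of 0.0511 by edgeR's quasi-likelihood test, which missed the threshold, and by -1.81 in replicate 1 and -0.46 in replicate 2. Without the deepest oocyte of 100–109 μm the value was -0.79 (adjusted p 0.13 by the same test), and with DESeq2 it was -1.19 (adjusted p 0.015). The ratio of the ANAPC11 to the ANAPC2 level was between 1.16 and 1.86 in the 12 sums up to 109 μm, and between 2.30 and 3.21 in the 4 sums from 110 μm. In replicate 1 of 100–109 μm it was 2.07 without the deepest oocyte.

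CDC27, CDC23 and ANAPC7 are the subunits with tetratricopeptide repeats, which stack into the arc of the complex. CDC27 binds the tail of the co-activators. It rose between 100–109 and 110–119 μm by 1.35 log2 units (SE 0.36, adjusted p 0.0456 by edgeR's quasi-likelihood test). Its sums were 267.5, 216.5, 194.8, 263.4, 195.2, 112.8, 454.8 and 165.6 CPM in replicate 1 and 570.2, 732.7, 602.7, 743.9, 882.9, 721.2, 1232 and 1097 CPM in replicate 2. The 110–119 μm sum was the highest in both replicates, while the >120 μm sum was among the 2 lowest of replicate 1 and the second highest of replicate 2. Single oocytes of replicate 1 ranged from 75.2 to 217 CPM (median 160) at 100–109 μm and from 87.7 to 1040 CPM (median 300) at 110–119 μm. In replicate 2 they ranged from 432.6 to 1350 CPM (median 715) and from 577 to 1600 CPM (median 1340). The median was higher at 110–119 μm in both replicates and the ranges overlapped in both.

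The difference for CDC27 was 2.00 log2 units in replicate 1 and 0.77 in replicate 2. Without the deepest oocyte of 100–109 μm it was 1.21 (adjusted p 0.0458 by edgeR's quasi-likelihood test). The call was lost without any 1 of 8 sums, at adjusted p-values between 0.0526 and 0.479 by the same test. Without replicate 1 of 100–109 μm the difference was 0.97, and without replicate 1 of 110–119 μm it was 1.07. The other 6 sums were both replicates of 60–69, 80–89 and 90–99 μm, which are not in the contrast, and why the call was lost without them was not tested. CDC27 differed between >120 and 110–119 μm by -0.77 (SE 0.36), with an adjusted p of 0.445 by edgeR's quasi-likelihood test. Between >120 and <60 μm it differed by -0.69 in replicate 1 and by 0.94 in replicate 2, and the pooled value was 0.14 (SE 0.36, adjusted p 0.826).

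CDC23, which also contacts the co-activators, had the widest range of group levels among the subunits, at 3.00-fold between 70–79 and 110–119 μm oocytes. It fell by 0.16 log2 units per 10 μm of diameter (SE 0.04, adjusted p 0.00837 by edgeR's quasi-likelihood test), and the slope stayed below the threshold without any of the 16 sums. Its sums were 226.9, 232.4, 328.8, 157.5, 219.5, 125.9, 70.2 and 97.6 CPM in replicate 1 and 115.2, 75.9, 145.8, 80.5, 75.7, 101.5, 75.7 and 68.7 CPM in replicate 2. The 70–79 μm sum was the highest in both replicates. Single oocytes of 70–79 μm ranged from 110 to 560 CPM (median 252), and those of 110–119 μm from 38.1 to 247 CPM (median 71.5). The value of 560 CPM was that of the 79.0 μm oocyte named for ANAPC5. Within replicates the medians at <60 and 60–69 μm were 251 and 236 CPM in replicate 1 and 116.2 and 88.8 CPM in replicate 2. With the deepest oocyte of 100–109 μm left out, the replicate 1 sum of that group was 1.61 times as high, and the slope was -0.13 (adjusted p 0.022 by edgeR's quasi-likelihood test). Between >120 and <60 μm CDC23 differed by -0.98 log2 units (SE 0.35, adjusted p 0.0606 by edgeR's quasi-likelihood test), by -1.21 in replicate 1 and -0.74 in replicate 2, and DESeq2 gave an adjusted p of 0.0419.

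ANAPC7, the repeat protein found at the top of the arc in vertebrates, was no DEG in any comparison on the sums. Its sums lay between 90.2 and 212.5 CPM in replicate 1 and between 86.2 and 135 CPM in replicate 2. The slope over diameter was -0.06 log2 units per 10 μm (SE 0.03, adjusted p 0.15 by edgeR's quasi-likelihood test).

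ANAPC13 is a small protein that runs along the repeat subunits and steadies them. It rose with diameter by 0.10 log2 units per 10 μm (SE 0.04, adjusted p 0.0408 by edgeR's quasi-likelihood test). That call was lost without replicate 1 of 110–119 μm or replicate 1 of 80–89 μm, at adjusted p-values between 0.0516 and 0.0634 by the same test. Its sums were 119.6, 98.7, 72.7, 92.8, 95.2, 85.8, 228.2 and 125.8 CPM in replicate 1 and 152.7, 163.8, 132.1, 148.2, 188.8, 217.6, 263.5 and 212.2 CPM in replicate 2. In both replicates 70–79 μm was the lowest group and 110–119 μm the highest, which is the reverse of CDC23 at 70–79 μm. Single oocytes ranged from 27.4 to 217 CPM (median 84) at 70–79 μm and from 104 to 391 CPM (median 228) at 110–119 μm. The change from 100–109 to 110–119 μm was 0.84 log2 units (SE 0.29, adjusted p 0.0829 by edgeR's quasi-likelihood test), with 1.40 in replicate 1 and 0.27 in replicate 2.

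**Figure D2:**
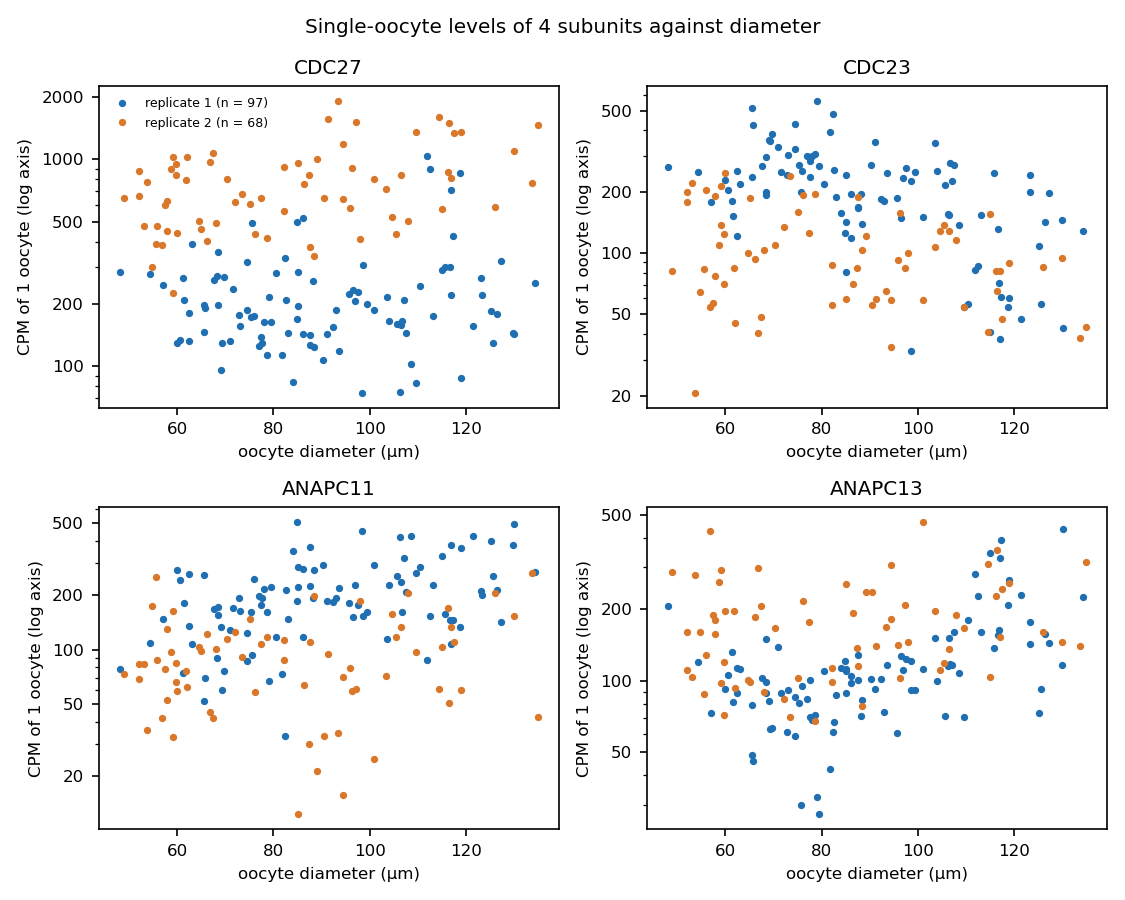
CPM of single oocytes (vertical axes, log scale) against oocyte diameter in μm for CDC27, CDC23, ANAPC11 and ANAPC13, with the 97 oocytes of replicate 1 in blue and the 68 of replicate 2 in orange; each point is 1 oocyte. Most CDC27 values of replicate 2 lie above those of replicate 1, and CDC23 and ANAPC13 slope in opposite directions in replicate 1, with r of -0.573 and 0.542.

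In the successive comparisons, the share of subunits called has to be read against the share of all genes. In 60–69 versus <60 μm 0.0142% of the 14087 genes were DEGs, in 70–79 versus <70 μm 0.135%, and in 90–99 versus 80–89 μm 0%. In these 3 comparisons 0 of the 9 subunits were called by edgeR, 0 had an unadjusted p below 0.05, against 3.21%, 7.55% and 3.33% of all genes, and DESeq2 called 0, against 0.0497%, 0.589% and 0%. In 80–99 versus 70–79 μm 0% of genes and 0 subunits were called by edgeR, and DESeq2 called 0 subunits, against 0.121% of all genes. ANAPC5 (-0.53) and CDC23 (-0.85) had an unadjusted p below 0.05 by edgeR there, as had 5.54% of all genes. In 100–109 versus 80–99 μm 0.497% of genes (0.433% higher and 0.0639% lower) and 0 subunits were called by edgeR, 0 subunits had an unadjusted p below 0.05, against 16.1% of all genes, and DESeq2 called 0, against 3.59%. In >120 versus 110–119 μm 0.00710% of genes and 0 subunits were called by edgeR, and DESeq2 called 0 subunits, against 0.0142% of all genes. ANAPC2 (0.77), CDC27 (-0.77) and ANAPC13 (-0.61) had an unadjusted p below 0.05 by edgeR there, as had 11.1% of all genes.

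In 110–119 versus 100–109 μm 1 of 9 subunits was called, CDC27, against 3.88% of all genes, 1.89% higher and 1.99% lower. That share was 0% without replicate 1 of either group, between 0.536% and 1.56% without either replicate of 60–69 or 80–89 μm, 1.71% and 2.06% without replicate 2 or 1 of 90–99 μm, and between 8.07% and 9.94% without replicate 2 of either group or either replicate of <60 μm. The median log2 fold change of the 9 subunits was -0.03, from -1.22 (ANAPC2) to 1.35 (CDC27), beside a median of -0.06 and quartiles of -0.74 and 0.57 over all genes. In >120 versus <60 μm 1 of 9 was called, ANAPC11, against 19.2% of all genes, with a subunit median of -0.27 beside -0.12 over all genes. The share of all genes was 7.4% without replicate 1 of <60 μm, 7.63% without replicate 1 of >120 μm and 10.2% without replicate 2 of >120 μm. For the slope over diameter 3 of 9 were called, ANAPC11 and ANAPC13 upward and CDC23 downward, against 33% of all genes, so the share of subunits that followed diameter was near that of the background. DESeq2 called 3 subunits in the first of these comparisons against 14% of all genes, 2 in the next against 24.3% and 3 for the slope against 36.4%.

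**Figure D3:**
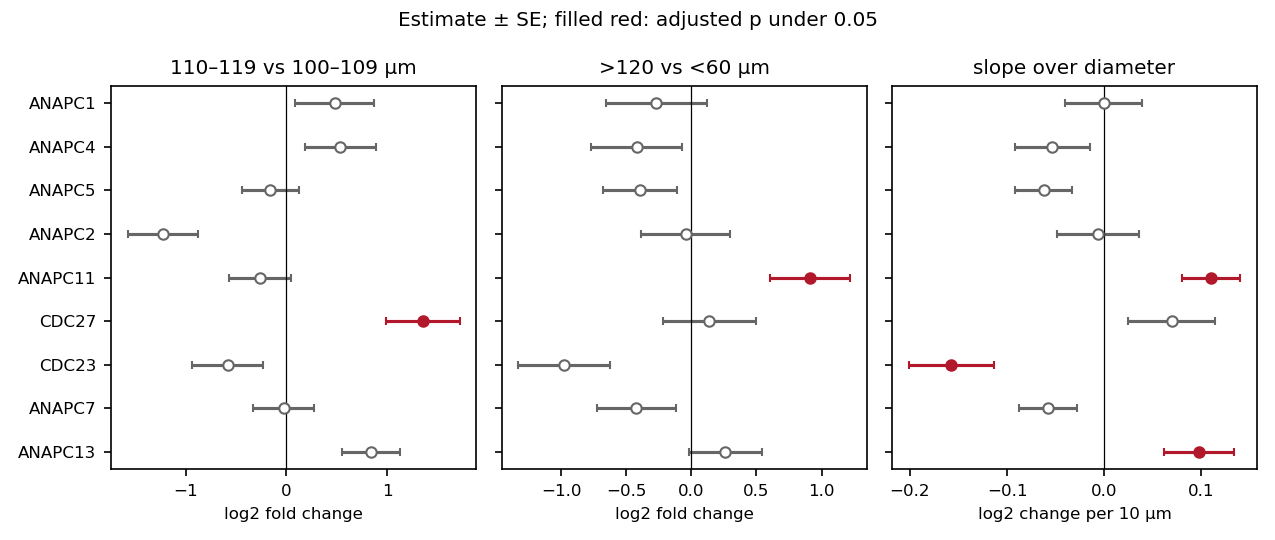
Log2 fold change of each subunit (left and middle panels) and log2 change per 10 μm of diameter (right panel) on the horizontal axes, as the estimate ± SE from the 16 sums, with filled red points for an adjusted p below 0.05. The called values are CDC27 at 1.35, ANAPC11 at 0.91, and slopes of 0.11 for ANAPC11, 0.10 for ANAPC13 and -0.16 for CDC23.

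When the 8 groups were ordered by level for each subunit, 0 of the 63 pairs of neighbours in these orders were called by edgeR's quasi-likelihood test, which is a description, since the same levels set the order and neighbours are the closest groups. The lowest unadjusted p of a neighbouring pair was 0.0447 for ANAPC13, 0.0458 for CDC27 and 0.0964 for ANAPC2, and above 0.2 for each of the rest. Over the 28 pairs of groups and 9 subunits, 9 of 252 tests were called (3.57%), against a mean share of 3.9% of all genes over the same pairs, so the subunits were near the background. Of these, 4 were of ANAPC13, which was higher at 110–119 μm than at <60, 60–69, 70–79 and 80–89 μm, by 0.87 to 1.35 log2 units, in pairs where between 2.84% and 16.5% of all genes were called. Another 3 were of CDC23, which was lower at 110–119 μm than at <60 μm (-1.07) and 70–79 μm (-1.52), and lower at >120 than at 70–79 μm (-1.42), in pairs with between 6.96% and 16.5% of all genes. The others were the CDC27 and ANAPC11 pairs given above. The fold range between the highest and the lowest group was 2.63 for CDC27, 2.50 for ANAPC13, 2.21 for ANAPC2, 1.95 for ANAPC11, 1.68 for ANAPC4, 1.57 for ANAPC5, 1.51 for ANAPC7 and 1.48 for ANAPC1. The replicates gave the same direction for 6 of 9 subunits in 110–119 versus 100–109 μm and for 7 of 9 in >120 versus 110–119 μm. For the other 6 comparisons of groups it was between 2 and 5 of 9.

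The replicates also differed. In the same fit, 8 of the 9 subunits differed between replicate 2 and replicate 1 by edgeR's quasi-likelihood test, against 57.7% of all genes, a comparison added after the data were seen. CDC27 was 3.66-fold higher in replicate 2 (1.87 log2 units, SE 0.19, adjusted p 9.69e-08 by edgeR's quasi-likelihood test), beside a median size of 0.81 and an upper quartile of 1.34 over all genes. ANAPC4 and ANAPC13 were also higher in replicate 2, by 0.75 and 0.74 log2 units. ANAPC5 (-1.0), ANAPC11 (-0.96), CDC23 (-0.88), ANAPC2 (-0.84) and ANAPC7 (-0.38) were lower in replicate 2. ANAPC1 had a difference of 0.14 (SE 0.20) with an adjusted p of 0.562. The plot of these differences sets the subunits beside the median size over all genes.

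**Figure D4:**
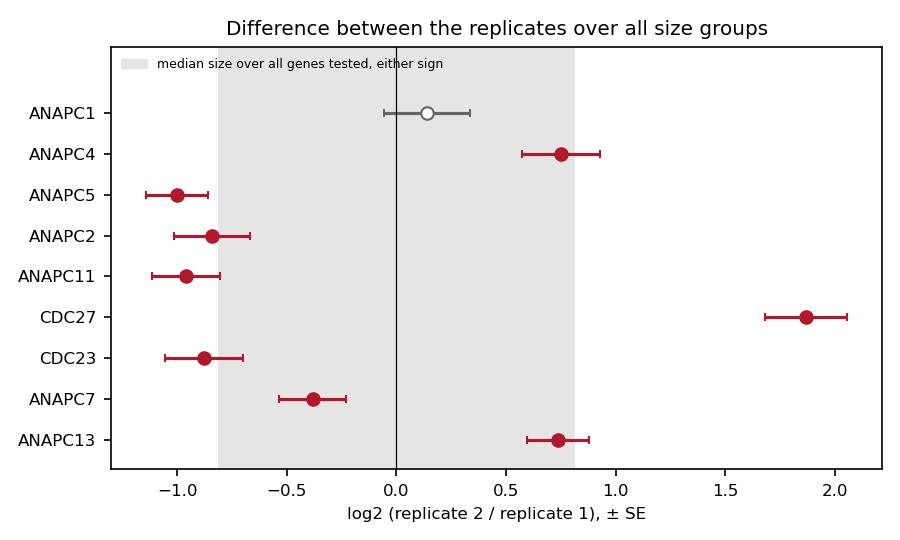
Difference between replicate 2 and replicate 1 over all size groups for each subunit, as log2 estimate ± SE on the horizontal axis, with filled red points for an adjusted p below 0.05 and a grey band that spans the median size over all 14087 genes, 0.81, in either direction. CDC27 lies farthest out at 1.87.

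Over the 165 oocytes, with the mean of each replicate removed, log2(CPM + 1) and diameter had a Pearson r of -0.438 for CDC23, 0.386 for ANAPC13, 0.279 for ANAPC11, 0.217 for CDC27 and -0.206 for ANAPC7. The Spearman rho values were -0.409, 0.363, 0.279, 0.176 and -0.246 in the same order. The other 4 subunits lay between -0.169 and 0.106, and the median over 11065 genes was -0.0333 with quartiles of -0.227 and 0.183. These are descriptions without a test, since oocytes share library batches, and animals that are not named. Within the 97 oocytes of replicate 1 and the 68 of replicate 2, r was -0.573 and -0.262 for CDC23, 0.542 and 0.185 for ANAPC13, 0.441 and 0.114 for ANAPC11, and 0.0904 and 0.409 for CDC27. The sign held in both replicates for these 4. For ANAPC7 r was -0.383 in replicate 1 and -0.0291 in replicate 2. With the mean of each size group in each replicate removed, CDC23 had an r of -0.367 with the log2 total count of the oocyte. The rest had values between -0.114 and 0.23. Depth differences between size groups are not in these values, and the part of depth in the slope of CDC23 was not tested.

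Pairs of subunits varied in either direction from oocyte to oocyte. For the 36 pairs of subunits, the mean of each size group in each replicate was removed, so r leaves out change between size groups. Over the 165 oocytes r had a median of 0.00213, beside 0.0184 over all pairs of genes, and 18 pairs were positive. Of the 36 pairs, 5 lay above and 8 below the span from -0.312 to 0.381 that holds all pairs of genes between the 5% and 95% points. The highest was 0.751 for ANAPC2 with ANAPC11, the catalytic pair, followed by 0.433 for ANAPC4 with ANAPC7. The lowest were -0.537 for ANAPC11 with CDC27 and -0.514 for ANAPC2 with CDC27. The points share amplification, depth and composition of the same oocyte, and no test was made.

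ANAPC2, ANAPC11 and CDC23 stand on 2 gene models each in the count table, and the values above sum both. The first model held 66.7% of the counts of ANAPC2, 46.4% of ANAPC11 and 18.8% of CDC23. For ANAPC11 the models had an r of 0.985 over oocytes, and the share of the first was between 40.8% and 48.9% in the 16 sums. Both models of ANAPC11 had a called slope (adjusted p 0.00987 and 0.00486 by edgeR's quasi-likelihood test). Between >120 and <60 μm the second was called (0.93, adjusted p 0.0426 by the same test) and the first was not (0.85, adjusted p 0.078). For CDC23 r was 0.511, and the share of the first model was between 11.8% and 26.7% in the 12 sums up to 109 μm and between 27.9% and 35.6% in the 4 sums from 110 μm. Fitted apart, the second model of CDC23 fell by 0.19 log2 units per 10 μm (adjusted p 0.00652 by edgeR's quasi-likelihood test) and differed between >120 and <60 μm by -1.20 (adjusted p 0.0267). The first model had a slope of -0.05 (adjusted p 0.303) and a difference of -0.33 (adjusted p 0.564), so the called slope of CDC23 stands on the larger model. For ANAPC2 r was 0.71, and the first model fell between 100–109 and 110–119 μm by 1.54 (adjusted p 0.0432 by edgeR's quasi-likelihood test), whereas the second had a value of -0.53 (adjusted p 0.318). Without the deepest oocyte of 100–109 μm the first model had a value of -0.95 and was not called (adjusted p 0.098 by the same test). The difference between the models of a gene was not tested, and what the models stand for is not given in the sources used here.

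**Figure D5:**
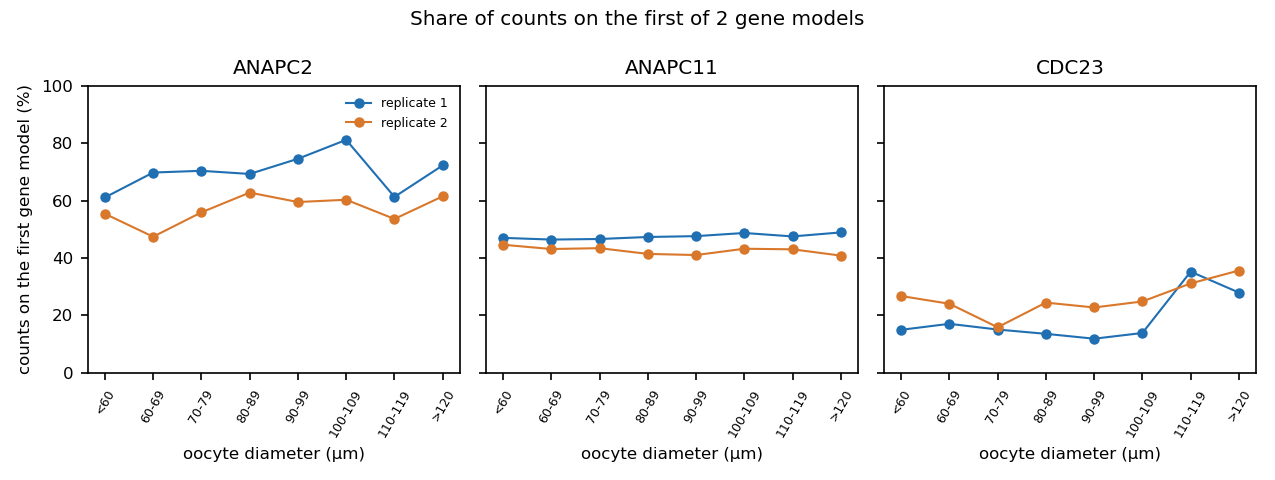
Share of the counts of ANAPC2, ANAPC11 and CDC23 that fall on the first of 2 gene models (vertical axis, percent from 0 to 100) in each size group (horizontal axis, diameter in μm), with replicate 1 in blue and replicate 2 in orange. The share stays between 40.8% and 48.9% for ANAPC11 and reaches 27.9% to 35.6% in the 4 sums of CDC23 from 110 μm.

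The genes with patterns most like those of the subunits with the widest ranges were sought among 2927 tested genes with a symbol, by Pearson r over the 16 sums with replicate means removed. For CDC23 they were CRNKL1 (0.954), COG2 (0.947) and ABCB6 (0.915). For CDC27 they were CHURC1 (0.970), CCDC18 (0.919) and CNOT7 (0.915). The highest of many candidates is high by selection, and nothing on shared function follows from it.

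Of 4 further subunits, 3 were paired, ANAPC15, CDC16 and CDC26. In 110–119 versus 100–109 μm 1 of these 3 was called, against 3.88% of all genes, 1.89% higher. CDC26, a small protein that steadies CDC16, was higher at 110–119 μm by 1.22 log2 units (SE 0.33, adjusted p 0.0483 by edgeR's quasi-likelihood test), by 1.76 in replicate 1 and 0.51 in replicate 2. That call was lost without any 1 of 9 sums, at adjusted p-values between 0.0503 and 0.548 by the same test. The 9 were those named for CDC27 and replicate 2 of 70–79 μm. CDC16, the remaining repeat subunit, fell by 0.11 log2 units per 10 μm (SE 0.03, adjusted p 0.0147 by edgeR's quasi-likelihood test). It lost that call without replicate 2 of <60 μm, replicate 1 of 60–69 μm, replicate 2 of 110–119 μm or replicate 1 of >120 μm, at adjusted p-values between 0.0592 and 0.0984. ANAPC15 was not called in any comparison, and its group levels spanned 1.17-fold.

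Of 5 co-activators and E2 enzymes only CDC20 was paired. Since the symbol lists were held here in part, an unpaired gene of any of these lists may still be expressed. Its log2 fold change between 100–109 and 110–119 μm was -1.16 (SE 0.31, adjusted p 0.0449 by edgeR's quasi-likelihood test), with -1.25 in replicate 1 and -1.06 in replicate 2. Its call was lost without any 1 of 9 sums, at adjusted p-values between 0.0554 and 0.456, those named for CDC27 and replicate 2 of 110–119 μm. Without the deepest oocyte of 100–109 μm the value was -0.73 (adjusted p 0.178 by the same test). Of 5 inhibitors, BUB1B and BUB3 were paired. BUB1B, part of the mitotic checkpoint complex, had a slope of -0.10 log2 units per 10 μm (adjusted p 0.0109 by edgeR's quasi-likelihood test), a call lost without replicate 2 of 110–119 μm or either sum of >120 μm (adjusted p 0.0553 to 0.0922 by the same test). BUB3 was not called in any comparison.

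Of 16 known substrates 10 were paired, and 4 were higher and 1 was lower in >120 than in <60 μm oocytes, against 9.36% and 9.80% of all genes. Cyclin B2 (CCNB2) was higher by 1.27 log2 units (SE 0.30), the spindle protein CKAP2 by 1.22 (SE 0.34), the phosphatase CDC25A by 0.98 (SE 0.30) and the kinase AURKB by 0.86 (SE 0.26). Cyclin B3 (CCNB3) had a value of -1.43 (SE 0.34), and the adjusted p-values of these 5 were between 0.00648 and 0.0301 by edgeR's quasi-likelihood test. Each of these 5 calls was lost without at least 2 of the sums of <60 and >120 μm, at adjusted p-values between 0.0557 and 0.163 by the same test: CCNB2 and CCNB3 without replicate 1 of either group, CKAP2 without replicate 2 of either group, AURKB without replicate 2 of <60 μm or either sum of >120 μm, and CDC25A without any of the 4. For the slope over diameter these 5 and AURKA were called, 5 upward and 1 downward, against 14.8% and 18.1% of all genes, with 0.18 log2 units per 10 μm for CKAP2 and CCNB2, 0.10 for AURKA and -0.20 for CCNB3. The median slope of the 10 substrates was 0.07 log2 units per 10 μm, beside -0.01 for the 9 subunits and -0.02 over all genes. COL1A2 was higher in both of these comparisons, as given above, while the stromal markers COL1A1 and COL3A1 had counts in 4 or fewer oocytes. The 6 slopes were called without any 1 of the 16 sums. None of the 10 substrates was called in 110–119 versus 100–109 μm, against 3.88% of all genes, a share too low to tell such a count from the background.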

How the data were processed

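Polyadenylated mRNA of 179 single bovine oocytes was sequenced. Per the labels and the methods, the authors trimmed reads with Trim Galore (0.6.6), mapped them with HISAT2 to ARS-UCD1.2 and deposited raw counts per gene model from SeqMonk. Multi-mapping and strand settings are not given in the sources used here. The 165 oocytes of the study's quality-controlled set were used, matched by oocyte ID, with diameters from the labels. The study's list gives total raw counts in another order than its IDs, while its mapped reads followed the deposited totals by ID. Gene IDs on several lines (23161 lines, 21218 IDs) were summed. Symbols came from the study's supplementary lists, held here in part, which pair 3608 IDs.

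Counts were summed per size group and replicate (16 sums), filtered with filterByExpr (minimum count 10, minimum total 15) and fitted in edgeR 4.0.16 (R 4.3.3) with TMM, 8 groups and the replicate as a block. The slope was fitted on the mean diameter of each sum. Adjusted p-values cover all 14087 genes, and the SE is the log2 change divided by the square root of F. Replicates are library batches, and the sums of 1 replicate deviated together (28 pairs, r 0.576 to 0.836), so the block stayed in the model. CPM of oocytes used TMM effective library sizes and log2(CPM + 1). Depth was 277126 to 8038061 counts per oocyte. Alternatives used DESeq2 1.42.0 and sva 3.50.0. Tables and figures were made in Python 3.11.15 with matplotlib 3.10.9, scipy 1.17.1, pandas 2.3.3 and numpy 2.4.6.

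All paired subunits are named, other genes of the pathway only where called or counted, and likeness was sought for the 2 subunits with the widest range. The members and lists were chosen with earlier results of these data known. Alternatives were no block, RLE, DESeq2, no filter, single oocytes (raw or ComBat-seq), thinning to 250000 counts, all 179 oocytes and each sum left out. The larger gene model, the model lines apart, the deepest oocyte left out (also from the levels and model lines) and the replicate contrast were added after seeing the data.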

Additional observations from a re-analysis of the deposited data

Results flagged for a closer look

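The study's set left out 14 of the 179 deposited oocytes, and 9 of these held at least 100000 counts. In these 9 oocytes 1 to 9 of the subunits had counts, and their summed CPM had a median of 1110 (13.9 to 1540), beside a median of 1320 (807 to 2040) in the 165 oocytes of the set. They were flagged because the comparisons do not use them and yet most of the signal of the subunits is present. The size groups hold more than 10 oocytes each, so no test for a single outlying oocyte was made.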

How the results depend on the processing

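Subunits called are given for 110–119 versus 100–109 μm, >120 versus <60 μm and the slope over diameter, where the fit above called 1, 1 and 3. Without the replicate block, the counts were 0, 0 and 0 (0%, 0.575% and 15.6% of all genes), and with all 179 oocytes 0, 0 and 2 (0.0142%, 18.5% and 32% of all genes). DESeq2 gave 3, 2 and 3 (14%, 24.3% and 36.4% of all genes), the larger gene model 2, 2 and 3 (4.37%, 18.9% and 32.7%) and no filter on low counts 2, 2 and 3 (7.33%, 15.2% and 26.6%). Single oocytes as units gave 4, 3 and 5, against 36.9%, 40.6% and 57.8% of all genes with raw and 38.3%, 41% and 56.4% with ComBat-seq counts. Without the deepest oocyte of 100–109 μm they were 1, 2 and 3 (3.39%, 21.1% and 33.5%). RLE and thinning each gave 1, 1 and 3 (4.74%, 19% and 32.7% with RLE, 7.19%, 25.3% and 38.9% with thinning). Leaving out each sum gave 0 to 4, 0 to 2 and 2 to 3, while the share of all genes went from 0% to 9.94%, from 7.4% to 19% and from 26.5% to 32.8%. Single oocytes as units also called 1 subunit in 70–79 versus <70 μm (ANAPC13, against 7.54% of all genes with raw counts), 80–99 versus 70–79 μm (CDC23, 2.86%) and >120 versus 110–119 μm (CDC27, 6.7%), and treat oocytes of 1 library batch as replicates. No called value changed sign under 26 alternatives, while 226 of 2106 values in all did, with sizes of up to 0.53 in the fit above. The median r of the 9 subunits with diameter was -0.0774, and 0.0872 in replicate 2 alone. It was 0.106 with all 179 oocytes, on CPM without TMM factors, so that the set of oocytes and the scaling both differ. The lowest detection of a subunit was 98.2%, 93.3% after thinning and 93.9% over all 179 oocytes. CDC27 in 110–119 versus 100–109 μm was called in 17 of 27 fits, with adjusted p-values by these tools between 1.05e-06 and 0.87, and ANAPC11 in >120 versus <60 μm in 20, between 0.0024 and 0.542. The cause of these differences was not tested. Depth limits ANAPC1 most, with a median of 25 counts per oocyte.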
